A study of Rattus norvegicus with 6 samples.

Results

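Late round spermatids marked by Cd109, Tmem123 and Inava were examined in SD rats, a laboratory strain, after a stress model built on a frightening sound. The deposited natural log tables of all libraries were pooled, each of 30 genes was z-scored over all cells, and each cell joined the set of 3 genes, out of 10 sets, with the highest mean z-score. Set 5 (Cd109, Tmem123, Inava) took 874 of 11744 cells. The study asks whether psychological stress disturbs sperm formation. Testicular tissue of 3 stressed rats, sampled after the sound stress, and of 3 normal control rats gave 1 single-cell library each, and no further allele, agent, age or duration of exposure is given in the sources used here. The cells were chosen by the expression of these genes in the same libraries, so levels of one set against another are given below as descriptions without a test. Stressed and control libraries were not told apart by the rule, and the tests below compare these groups over animals.

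Round spermatids are the haploid cells that follow meiosis. They build the acrosome, the enzyme-filled cap of the sperm head, and transcribe a large programme driven in part by the activator CREM. In late round spermatids the nucleus takes up its polar position and the manchette, a skirt of microtubules that shapes the head, begins to form. Messages for transition proteins and protamines, which replace histones, are made here and translated later, when the compacting nucleus falls silent. Cd109 encodes a protein anchored to the cell surface by a lipid and is known from human skin cells as a co-receptor that dampens transforming growth factor beta signals. Tmem123 encodes porimin, a mucin-like membrane protein. Inava encodes a partner of cytohesins, the exchange factors of ARF GTPases.

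Set 5 held 44, 147 and 160 cells in stressed replicates 1 to 3 and 135, 178 and 210 cells in control replicates 1 to 3. Summed over these cells, the counts came to 1493082, 6602449 and 6170678 in the stressed libraries and 5920109, 7489944 and 10962409 in the controls, so stressed replicate 1 carried the lowest precision. The median member had 32184 to 44447 counts and 2467 to 3146 genes in the stressed libraries, and 39487 to 47288 counts and 1947 to 3324 genes in the controls. Stressed replicate 1 also stood apart in content. AY172581.24, an identifier without a symbol, had 41759, 5522 and 2634 CPM (counts scaled to a total of 1000000 over a library's set 5 cells) in the stressed libraries and 4987, 6763 and 4072 CPM in the controls. Of barcode sequences, 2 occurred in 2 libraries, and 0 of them belonged to a member.

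Promoter stretches are shown for 4 of the 17 genes described below as highest in set 5, because these genes share a position in the sequence of sets. They are the 250 bases before the RefSeq start on assembly GRCr8, matched by symbol and written 5′ to 3′ on the gene's strand. Capitals mark TGACG, the core of the cAMP response element (CRE) bound by CREM and its relatives, and the GC box GGGCGG, bound by SP factors, on either strand.
Tmem123: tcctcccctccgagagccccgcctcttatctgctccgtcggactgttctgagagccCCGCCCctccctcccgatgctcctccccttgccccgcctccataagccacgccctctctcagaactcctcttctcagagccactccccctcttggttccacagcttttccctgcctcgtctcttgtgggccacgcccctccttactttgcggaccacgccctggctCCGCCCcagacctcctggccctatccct
Inava: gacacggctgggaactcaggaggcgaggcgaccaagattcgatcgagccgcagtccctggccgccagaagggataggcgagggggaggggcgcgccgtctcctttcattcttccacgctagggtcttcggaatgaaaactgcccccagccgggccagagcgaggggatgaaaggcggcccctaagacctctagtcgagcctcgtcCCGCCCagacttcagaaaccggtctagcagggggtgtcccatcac
Rps6ka5: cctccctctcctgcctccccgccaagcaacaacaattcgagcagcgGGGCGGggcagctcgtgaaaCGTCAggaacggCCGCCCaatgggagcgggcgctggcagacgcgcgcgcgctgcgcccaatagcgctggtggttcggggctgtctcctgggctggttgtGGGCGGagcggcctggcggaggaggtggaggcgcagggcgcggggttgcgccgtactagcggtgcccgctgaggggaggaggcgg
Gskip: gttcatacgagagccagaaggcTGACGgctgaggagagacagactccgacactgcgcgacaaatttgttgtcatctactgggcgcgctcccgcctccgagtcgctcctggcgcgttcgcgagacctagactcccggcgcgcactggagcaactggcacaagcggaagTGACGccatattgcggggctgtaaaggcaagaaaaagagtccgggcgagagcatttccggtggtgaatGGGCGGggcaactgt
The stretches lie at chr8:13206673-13206922 on the plus strand for Tmem123, chr13:50238431-50238680 on the minus strand for Inava, chr6:125735756-125736005 on the minus strand for Rps6ka5 and chr6:130356991-130357240 on the plus strand for Gskip. The 4 shown are not those with the highest ratios to the neighbouring sets. Cd109 had no promoter entry, and Flii, Stum and Dbi had higher ratios than Gskip. Flii and Stum held a GC box without TGACG, and Dbi held neither. Among 13 of the 17 genes described below as highest in set 5 that had a promoter entry, 9 (69.2%) held a GC box, as did 32.4% of all 27457 promoters of the same length. The CRE core TGACG stood in 4 of the 13 (30.8%) and in 18.96% of all promoters, and the full CRE TGACGTCA in 0 of the 13 and in 1.70% of all. The TATA box TATAAA stood in 1 of the 13 and in 13.1% of all. In base composition, 65.2% of bases were G or C in the Tmem123 stretch, 64.0% for Inava, 72.4% for Rps6ka5 and 60.4% for Gskip. The mean over all promoters was 52.6%. Of the 13 stretches, those of Cr1l (41.2%) and Cyb5d1 (48.0%) lay below that mean, and the others lay above it. The 13 genes had to reach a mean of 50 CPM in set 5, while the 27457 promoters were not filtered by expression. A comparison with other expressed genes was not tested. A match is a match of letters only, and no binding was measured.

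The rule genes were high in set 5 by construction, and their values are given to show what was selected. Cd109 had 717, 272 and 259 CPM in the set 5 cells of stressed replicates 1 to 3 and 371, 391 and 240.2 CPM in those of control replicates 1 to 3. The groups overlapped, and stressed replicate 1 was the highest of the 6 libraries. Tmem123 had 195, 198 and 272 CPM in stressed libraries and 203, 198 and 358 CPM in controls. Inava had 123, 203 and 151 CPM in stressed libraries and 208, 118 and 197 CPM in controls. Neither gene separated the groups. Over the 6 libraries, the mean level of Cd109 in sets 3 to 8 was 7.27, 68.7, 375, 99.2, 17.7 and 5.45 CPM. Tmem123 stood at 4.04, 43.2, 237, 28.7, 5.13 and 2.92 CPM in the same sets. Inava was almost absent before set 5, with 2.09 and 3.97 CPM in sets 3 and 4, and had 167, 73.2, 26.4 and 6.99 CPM in sets 5 to 8. The levels of Cd109 and Tmem123 thus lay above both neighbours and already stood higher in set 4 than in set 3, and that of Inava lay higher in set 6 than in set 4.

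**Figure D1:**
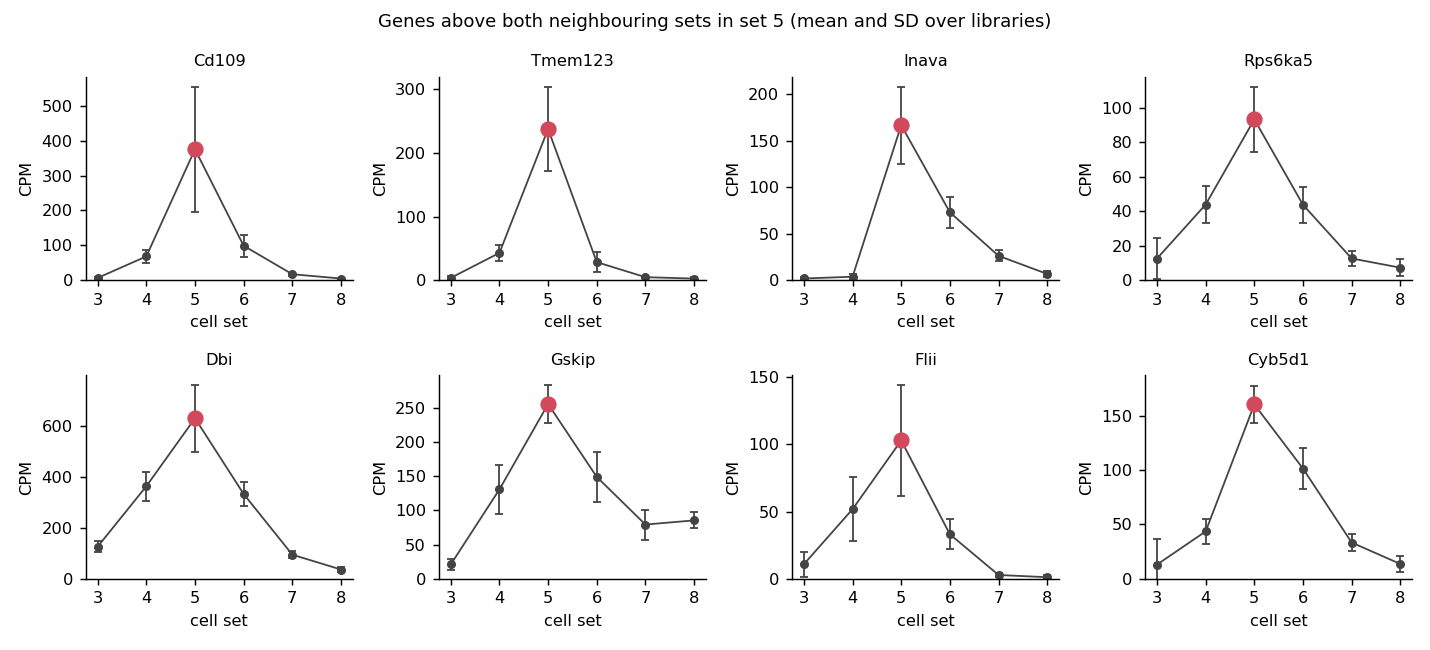
Mean level (CPM, y axis) and SD over the libraries with at least 20 cells in a set, for cell sets 3 to 8 (x axis), of 8 genes whose level in set 5 (large red point) lay above both neighbouring sets. Cd109, Tmem123 and Inava were used to choose the cells, and the other genes were not among the 30 rule genes; Dbi, for example, averaged 630.1 CPM in set 5, against 363 CPM in set 4 and 333 CPM in set 6.

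Counts of Cd109 were found in 78.7% of members, of Tmem123 in 78.7% and of Inava in 55.4%. All 3 were found in 304 members, 2 in 378 and 1 in 192. Detection varied by library. For Cd109 it ran from 55.7% of members in control replicate 3 to 100% in stressed replicate 1. For Tmem123 it ran from 65.9% in control replicate 1 to 90.4% in control replicate 2. For Inava it ran from 41.9% in control replicate 3 to 71.4% in stressed replicate 2. In the 444 spermatocytes of set 1, the shares were 3.38% for Cd109, 3.15% for Tmem123 and 1.13% for Inava. The median was 32346 counts a cell there and 40288 in members. The rule placed cells by these same genes, so the low shares were partly fixed by it and do not measure background. For Cd109, Tmem123 and Inava, the shares were 31.7%, 27.4% and 4.05% in set 4. In set 6 they were 42.7%, 20.8% and 38.8%. The 20 members nearest the boundary with another set had 202 CPM of Cd109, 247 of Tmem123 and 89.2 of Inava. The 20 cells just outside had 91.2, 168 and 69.7 CPM of these genes, and all members pooled had 316, 256 and 174 CPM. A margin under 0.25 between the highest and the second score was found in 180 members.

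Markers of both round and elongating spermatids were present. The 17 elongating spermatid markers found in the tables summed to 36906 CPM in set 4, 60380 CPM in set 5 and 93079 CPM in set 6, and 16 of the 17 had higher levels in each next set. Of the round spermatid markers, 17 reached a mean of 50 CPM in set 5, and 12 of them had lower levels in each next set. The round spermatid list summed to 9825, 7973 and 5173 CPM in sets 4, 5 and 6. Acrv1, an acrosomal antigen of round spermatids, averaged 191, 158 and 68.9 CPM in these sets, and Crem 651, 430.03 and 192 CPM. Transition protein 2 (Tnp2), one of the proteins that first displace histones and a rule gene of set 8, averaged 1385, 5502 and 12212 CPM. Rule genes of other sets stand in these marker lists, so their levels were partly fixed by the rule. Without them, the 10 remaining elongating spermatid markers summed to 16562, 26213 and 38995 CPM in sets 4, 5 and 6, and 9 of the 10 had higher levels in each next set. The 17 remaining round spermatid markers summed to 8473, 7281 and 4994 CPM. Spermatocyte markers summed to 999 CPM in set 4, 767 CPM in set 5 and 502 CPM in set 6, of which Insl6 made 446 CPM in set 5.

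Defining markers of somatic cells were at or near 0 in set 5 cells. Averaged over libraries, the 11 Sertoli cell markers found summed to 8.98 CPM, the 9 Leydig cell markers to 13.6 CPM, the 11 myoid and stromal markers to 37.5 CPM, the 6 endothelial markers to 2.60 CPM and the 7 T and natural killer cell markers to 2.38 CPM. At 0 in all 6 libraries were 3 Sertoli, 2 Leydig, 0 myoid, 1 endothelial and 3 T and natural killer markers. The 15 macrophage markers summed to 2594 to 2729 CPM in stressed libraries and 2571 to 3054 CPM in controls, nearly all of it Aif1, which averaged 2681 CPM and is also expressed in spermatids. Without Aif1 the sum was 275, 29.1 and 33.9 CPM in stressed libraries and 33.3, 118 and 29.9 CPM in controls. Apoe, the lipid carrier abundant in macrophages, had 188, 3.48 and 7.29 CPM in stressed libraries and 6.08, 58.2 and 2.74 CPM in controls, so stressed replicate 1 and control replicate 2 stood apart. The share of this RNA in the results below was not tested beyond leaving out the cells that carried most of it.

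Within set 5, cells leaned to either neighbour. The second highest score was that of set 4 in 381 members (43.6%) and that of set 6 in 321 (36.7%), while set 7 came second in 65 and set 8 in 49. Of 2582 genes outside the rule at 50 CPM or more, 340 (13.2%) had higher levels in members nearest to set 6 than in those nearest to set 4 in all 6 libraries, 452 (17.5%) had lower levels in all 6, and 1790 did neither. The genes named next were among those with 1 direction in all 6. Members nearest to set 6 averaged 13840 CPM of Tnp1 and those nearest to set 4 averaged 9143 CPM, higher in 6 of 6 libraries. Fxr1, an RNA-binding protein needed for translation in mouse spermatids, averaged 1626 CPM nearest to set 6 and 1136 CPM nearest to set 4, also higher in 6 of 6. Lower nearest to set 6 in all 6 libraries were Crem, at 362 against 534 CPM, the chaperone gene Hsp90aa1, at 662 against 1025 CPM, and the germ cell helicase gene Ddx4, at 66.9 against 141 CPM. Cyb5d1, with a cytochrome b5 domain, averaged 198 CPM nearest to set 6 and 135 CPM nearest to set 4. Among the rule genes, Inava averaged 215 and 102 CPM in the same comparison, and Tmem123 225 and 271 CPM.

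Most genes passed through set 5 on the way between its neighbours. Of 2600 genes at a mean of at least 50 CPM in set 5, 1480 (56.9%) had lower levels in each next set from set 4 to set 6, and 653 (25.1%) had higher levels in each. The level in set 6 was at least 2-fold below set 4 for 626 genes of the first kind and at least 2-fold above it for 330 of the second. In 315 genes (12.1%) the level was highest in set 5 of the 3, and in 152 it was lowest. Above both neighbours in all 6 libraries stood 62 genes. Over all 10 sets, 239 genes were highest in set 5. The sets follow the order of the rule, which is not a measured time.

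Only 17 of the 2600 genes exceeded the higher neighbour by at least 1.5-fold, and 4 by at least 2-fold, among them the rule genes Tmem123 (5.50-fold), Cd109 (3.78-fold) and Inava (2.28-fold). The other was Rps6ka5, which encodes MSK1, a kinase of histone H3 and of CREB. It had 121, 64.8 and 96.4 CPM in stressed libraries and 88.8, 103 and 85.02 CPM in controls, and its mean of 93.2 CPM lay above 43.9 CPM in set 4 and 43.8 CPM in set 6 in each library. Flii, an actin-remodelling protein of the gelsolin family, averaged 103 CPM against 51.8 CPM in set 4 and 33.1 CPM in set 6. Dbi, which encodes the acyl-CoA-binding protein, had 762, 634 and 560.2 CPM in stressed libraries and 541, 808 and 475 CPM in controls. Its mean of 630.1 CPM stood 1.73-fold above the higher neighbour. Gskip, an inhibitor of the kinase GSK3-beta, had 261, 304 and 242 CPM in stressed libraries and 258, 247 and 219 CPM in controls, and its mean was 1.71-fold above the higher neighbour. The levels of both genes overlapped between the groups and lay above both neighbouring sets in 6 of 6 libraries.

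The other genes of this kind had smaller ratios. Stum averaged 70.3 CPM (1.95-fold), Spata31d1b 63.5 CPM (1.63-fold), Cyb5d1 160.4 CPM (1.58-fold) and Ogfod3 184 CPM (1.50-fold). Hyls1, a centriole protein needed for cilia, averaged 54.0 CPM (1.61-fold), and Utp3, a factor of ribosome assembly, 101 CPM (1.54-fold). Each of these lay above both neighbours in 6 of 6 libraries. Cr1l, a regulator of complement on rodent cells, averaged 167 CPM (1.67-fold) and Kbtbd7, a ubiquitin ligase adaptor, 52.7 CPM (1.59-fold), in 5 of 6 libraries. Cr1l was spread widely, with 316, 113 and 95.1 CPM in stressed libraries and 136, 264 and 74.3 CPM in controls. The remaining 2 genes, ENSRNOG00000040116 and ENSRNOG00000037485, carry no symbol.

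Gene groups of sperm formation differed in their course through set 5. Acrosome genes were past their peak: the list summed to 21638 CPM in set 4, 19111 CPM in set 5 and 14320 CPM in set 6, and 25 of the 34 members at 50 CPM or more had lower levels in each next set. Spink2, an inhibitor of acrosomal protease, averaged 4185, 3203 and 1818 CPM in these sets. Spaca9 went the other way, with 1048, 1956 and 2410 CPM. The nuclear envelope and manchette list summed to 11254, 8881 and 6521 CPM, with 15 of 19 members lower in each next set. Sun5, a rule gene of set 4 that anchors the sperm head to the tail, averaged 701, 360.3 and 68.8 CPM, while Clip1, a microtubule plus-end protein, averaged 1127, 1250.3 and 1149 CPM and stood above both neighbours in set 5 in 6 of 6 libraries.

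The summed level of chromatin genes was higher in set 5 than in set 4. The chromatin remodelling list summed to 17709 CPM in set 4, 33542 CPM in set 5 and 57706 CPM in set 6, and 8 of 12 members at 50 CPM or more had higher levels in each next set. Tnp1 averaged 5346, 12102 and 21407 CPM and Prm2, a protamine, 1193, 5000.4 and 11798 CPM. Chd5, a remodeller needed for histone removal in mouse spermatids, was at 268, 284 and 196 CPM. Prm2 (set 9) and Tnp2 (set 8) are rule genes, and without them the list summed to 15131, 23040 and 33696 CPM. Of the 10 members then left, 6 were higher and 2 lower in each next set. Most of the rise in that sum from set 4 to set 5 was that of Tnp1. Among transcription regulators, Sox5 averaged 986, 1493 and 2107 CPM and Fhl5, the CREM coactivator known as ACT, 689.98, 895 and 989 CPM.

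The list of genes that store and handle RNA summed to 12878, 11637 and 9617 CPM in sets 4, 5 and 6, with 10 of 16 members lower and 5 higher in each next set. Pabpc1, the poly(A)-binding protein, averaged 6412, 4853 and 2518 CPM, and Fxr1 913, 1427 and 2104 CPM. Of the 22 nuclear genes of the respiratory chain and ATP synthase at 50 CPM or more, 20 had lower levels in each next set, with sums of 7668, 5926 and 4065 CPM. Tail genes split evenly: of 30 members of the outer dense fibre and fibrous sheath list, 12 were lower and 12 higher in each next set (12 and 9 of 27 without 3 rule genes). Fsip2, a fibrous sheath protein, averaged 1045, 572 and 181 CPM, while Smcp, a protein of the mitochondrial capsule and a rule gene of set 10, averaged 10721 CPM in set 4, 13256 CPM in set 5 and 16179 CPM in set 6. Axoneme genes, with 17 of 24 lower in each next set, summed to 8908, 7764 and 7250 CPM.

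**Figure D2:**
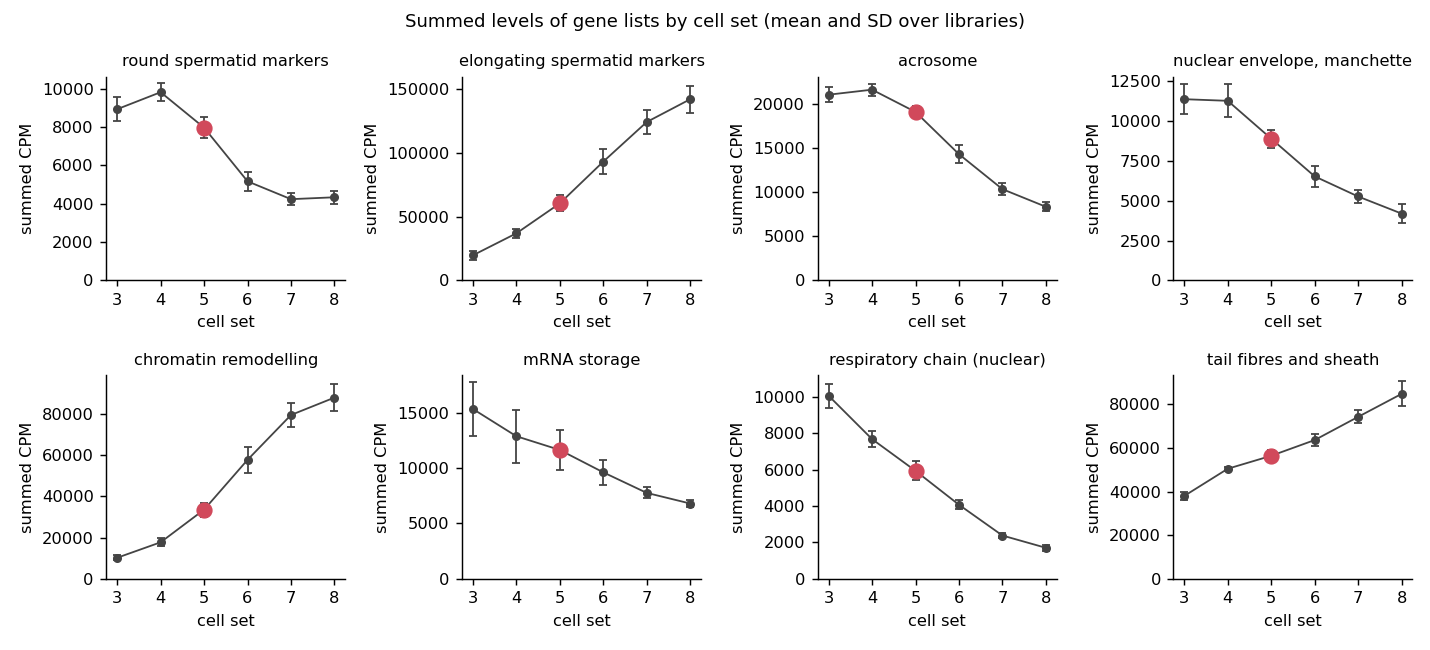
Summed level (CPM, y axis) of 8 gene lists in cell sets 3 to 8 (x axis), as mean and SD over the libraries with at least 20 cells in a set; set 5 is the large red point, and rule genes that belong to a list are included. Elongating spermatid markers and chromatin genes were higher in each next set (60380 and 33542 CPM in set 5), and round spermatid, acrosome and respiratory chain genes were lower there than in set 4.

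Partners of the rule genes were mostly low. Of 30 genes of the transforming growth factor beta pathway, 9 passed the filter on low counts and 6 were at 0 in all 6 libraries, and the list summed to 39.1 to 101 CPM in stressed libraries and 49.5 to 65.5 CPM in controls. The co-receptor gene Tgfbr3 averaged 34.6, 17.3 and 5.05 CPM in sets 4, 5 and 6, and the ligand gene Tgfb3 0.629, 8.79 and 18.1 CPM. Of 13 genes around INAVA, cytohesins and NOD signalling, 7 passed the filter. Arf4, an ARF GTPase, averaged 446, 584 and 695 CPM in sets 4, 5 and 6, and Cyth2, a cytohesin, 59.6, 44.4 and 30.4 CPM.

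The share of set 5 cells did not differ detectably between the groups. It was 10.8%, 5.87% and 7.17% of the cells of stressed replicates 1 to 3 and 5.76%, 9.88% and 8.56% of those of control replicates 1 to 3. The Wilson 95% interval, which covers counting error only, was widest for stressed replicate 1, from 8.11% to 14.1%. The means were 7.93% ± 2.53 in stressed rats and 8.07% ± 2.10 in control rats (SD, n = 3 each), a difference of -0.140 percentage points (2-sided exact permutation test, p = 1, where 3 against 3 animals allow no p below 0.1). Leaving out stressed replicate 1 gave -1.55 points, and leaving out stressed replicate 2 gave 0.892 points. Members nearest to set 6 made up 45.5%, 40.1% and 38.8% of set 5 in the stressed libraries and 34.8%, 41.0% and 28.6% in the controls. The means of 41.4% ± 3.54 in stressed and 34.8% ± 6.22 in control rats (SD, n = 3 each) differed by 6.65 points (2-sided exact permutation test, p = 0.3).

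**Figure D3:**
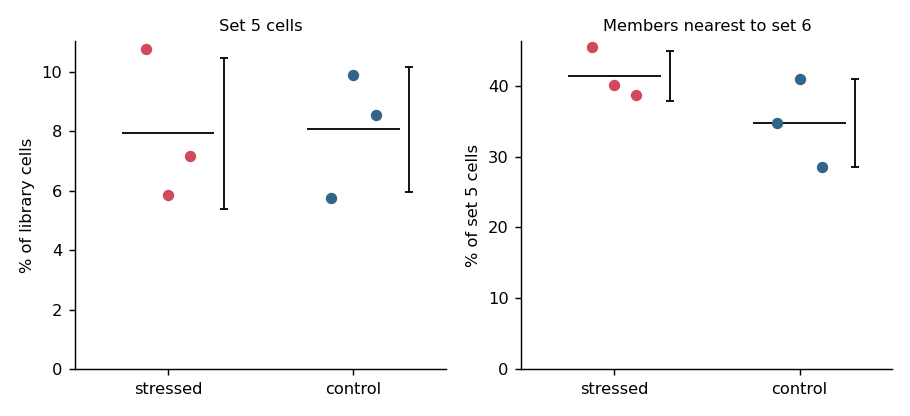
Share of a library's cells in set 5 (left, % of library cells) and share of members whose second score was that of set 6 (right, % of set 5 cells), with a point per rat, a line at the mean and a bar for the SD (n = 3). The groups overlapped in both panels.

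One gene passed the test between stressed and control set 5 cells. AABR07001902.1, an identifier with no function known here, had 29.5, 24.2 and 24.1 CPM in stressed libraries and 1.18, 1.74 and 2.37 CPM in controls. All stressed libraries lay far above all controls. Its log2 change was 3.86 (SE 0.49, adjusted p = 0.0285 by edgeR's quasi-likelihood test with Benjamini-Hochberg adjustment over 8659 genes). That is 1 call among 8659 genes, 0.0115%, beside 189 genes at an unadjusted p under 0.05, of which 96 were higher and 93 lower in stressed rats. The groups did not overlap for 713 genes, 8.23% of those tested, 237 of them higher and 476 lower in stressed rats. The median log2 change of all tested genes was -0.0028. The call was lost when any single library was left out, with adjusted p from 0.0546 to 0.344 by edgeR and a log2 change between 3.64 and 4.21.

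The same identifier was high in stressed cells of the neighbouring sets. In set 4 it had 39.0, 29.2 and 26.04 CPM in stressed libraries and 1.76, 2.56 and 3.499 CPM in controls (log2 change 3.58, adjusted p = 0.0270 by edgeR). In set 6 it had 30.07, 23.7 and 21.5 CPM in stressed libraries and 1.83, 2.11 and 2.61 CPM in controls (3.50, adjusted p = 0.0876 by edgeR). The effect in set 5 exceeded that in set 4 by 0.28 (SE 0.50) and that in set 6 by 0.41 (SE 0.57) on the log2 scale, with adjusted p of 1 and 0.9995 by edgeR. The sets share their animals, so their values are not separate evidence. Over all genes, 0 of 10528 had a stress effect that differed between sets 5 and 4 at an adjusted p under 0.05 by edgeR, and 352 did at the same unadjusted p. Between sets 5 and 6 the counts were 0 and 230 of 9858.

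ENSRNOG00000071151 had 0.670, 0.606 and 0 CPM in stressed libraries, where a count of 0 allows up to 0.486 CPM, and 14.9, 21.1 and 12.4 CPM in controls, and all controls lay above all stressed libraries. It missed the threshold (log2 change -5.32, SE 0.84, adjusted p = 0.133 by edgeR), while DESeq2, and edgeR with no filter on low counts, called it. ENSRNOG00000065510 had 42.2, 48.9 and 49.1 CPM in stressed libraries and 142, 89.1 and 163 CPM in controls (-1.45, SE 0.29, adjusted p = 0.810 by edgeR), and the same alternatives called it too. Both identifiers also had negative log2 changes in the neighbouring sets, without passing the edgeR test there. For ENSRNOG00000071151 they were -4.28 (SE 0.71) in set 4 and -2.99 (SE 0.64) in set 6. For ENSRNOG00000065510 they were -1.06 (SE 0.30) in set 4 and -1.27 (SE 0.34) in set 6.

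**Figure D4:**
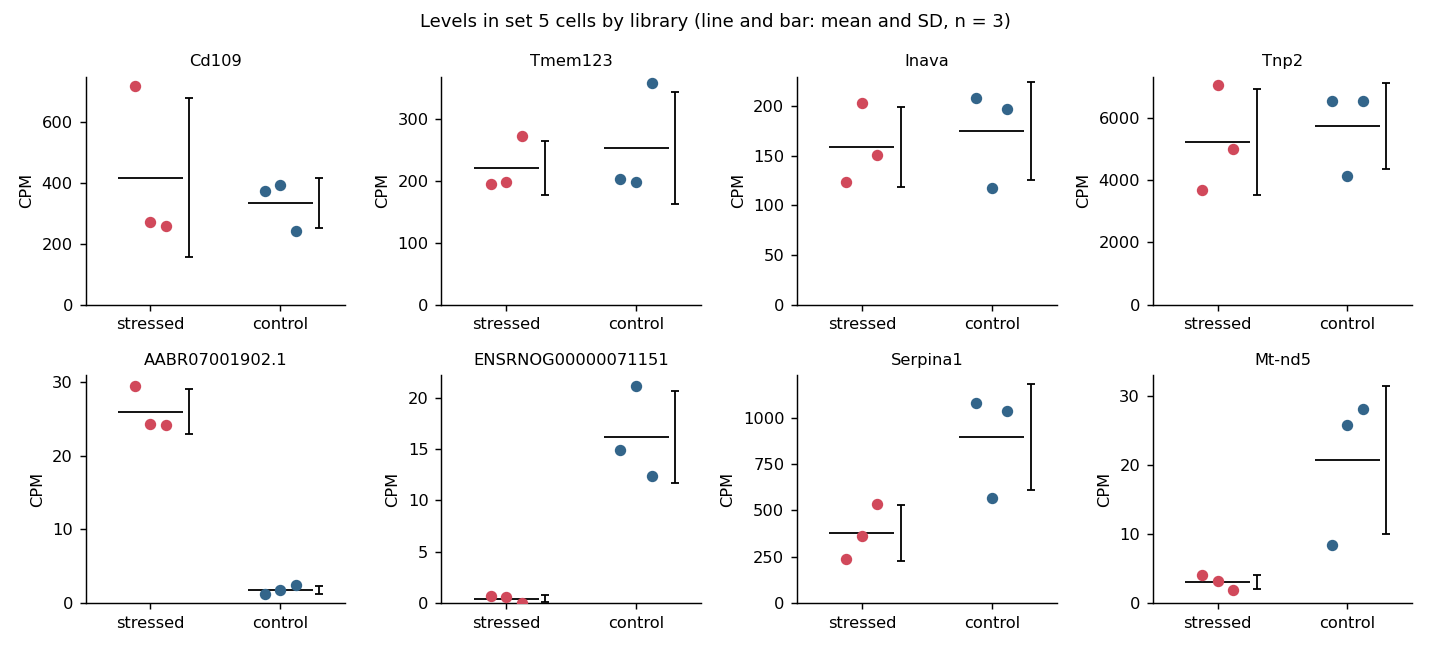
Level in set 5 cells (CPM, y axis) of 8 genes, with a point per rat, a line at the mean and a bar for the SD (n = 3, stressed left, control right). AABR07001902.1 had 24.1 to 29.5 CPM in stressed rats and 1.18 to 2.37 CPM in controls, and Cd109, Tmem123, Inava and Tnp2 overlapped between the groups.

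None of the genes with a symbol passed the edgeR test. Among those with at least 20 CPM in a group and no overlap, 6 with the highest log2 changes were Brd7, a bromodomain subunit of chromatin remodelling complexes (1.55, SE 0.58), Slc27a2, a fatty acid transporter (1.33, SE 0.63), Zfp184 (1.00, SE 0.34), Paxbp1 (0.98, SE 0.38), Fpgt (0.97, SE 0.41) and Secisbp2l (0.91, SE 0.44). Brd7 had 32.8, 14.4 and 14.1 CPM in stressed libraries and 6.25, 12.6 and 2.46 CPM in controls. Zfp184, a zinc finger gene, had 30.8, 33.3 and 30.6 CPM in stressed libraries and 15.5, 18.4 and 15.1 CPM in controls. For each the adjusted p was 0.999 by edgeR.

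The 6 with the lowest log2 changes were Mt-nd5, Serpina1, Stam (-1.16, SE 0.46), Chd1 (-1.13, SE 0.49), Kdelr2 (-1.12, SE 0.49) and Supt16h (-1.09, SE 0.44). Serpina1, which encodes the protease inhibitor alpha-1-antitrypsin, had 238, 363 and 536 CPM in stressed libraries and 1082, 566 and 1037 CPM in controls. Its log2 change was -1.20 (SE 0.33, adjusted p = 0.999 by edgeR; 0.000712 with no filter on low counts and 0.328 by DESeq2), and its level over sets 4, 5 and 6 was 243, 637 and 1001 CPM. Mt-nd5, a subunit of respiratory complex I encoded in the mitochondrion, had 4.02, 3.18 and 1.94 CPM in stressed libraries and 8.45, 25.8 and 28.1 CPM in controls (-2.80, SE 0.59, adjusted p = 0.998 by edgeR), and it was called by DESeq2 and by edgeR with no filter on low counts. Looked up after these values were seen, all 12 tested mitochondrially encoded protein genes had a negative log2 change, and 11 of them overlapped between the groups. Over all tested genes, the groups did not overlap for 8.23%. AY172581.24 (1.65, SE 1.00) and AY172581.9 (1.03, SE 0.52), identifiers looked up with them, were positive instead, did not pass the test and were highest in stressed replicate 1. Of the 12 protein genes, Mt-nd4, Mt-nd1, Mt-cyb, Mt-nd4l and Mt-atp8 were also highest in stressed replicate 1, although their log2 changes were negative. That of Mt-nd4 was small against its error (-0.076, SE 0.67). Mt-nd4 had 145, 26.4 and 19.0 CPM in stressed libraries and 32.4, 80.4 and 77.4 CPM in controls. Kdelr2 retrieves proteins to the endoplasmic reticulum, and Supt16h is a histone chaperone subunit.

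**Figure D5:**
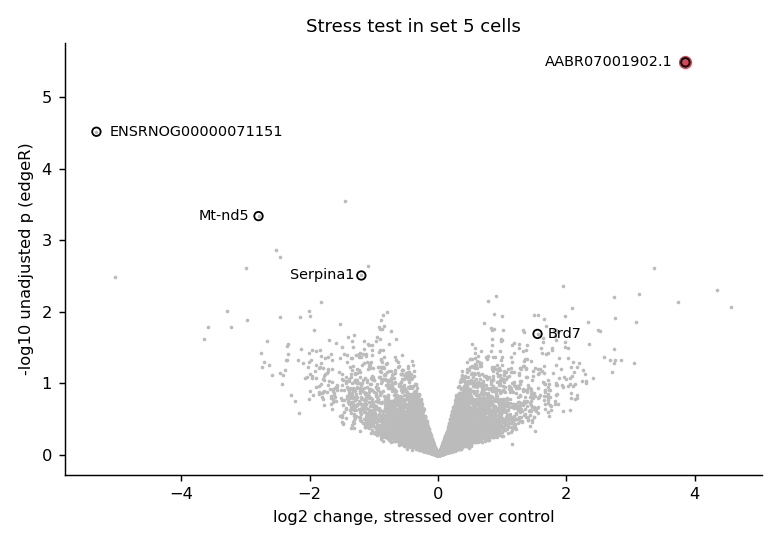
Log2 change, stressed over control (x axis), and -log10 of the unadjusted p by edgeR (y axis) for the 8659 genes tested in set 5 cells, each a point. The filled red point, AABR07001902.1, was called at an adjusted p under 0.05, and open circles mark other named genes.

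No gene of the spermatid programme named here passed the test. Tnp1 had 14529, 15145 and 8825 CPM in stressed libraries and 9911, 15947 and 8255 CPM in controls (log2 change 0.23, SE 0.28). Tnp2 had 3686, 7067 and 4997 CPM in stressed libraries and 6551, 4143 and 6565 CPM in controls (-0.08, SE 0.29). The changes of Prm2 (-0.0060, SE 0.37), Acrv1 (-0.15, SE 0.31) and the testis chaperone gene Hspa2 (-0.11, SE 0.21) were as small against their errors. Crem had 366, 376 and 424 CPM in stressed libraries and 464, 453 and 497 CPM in controls, lower in all stressed libraries (-0.24, SE 0.19). For each gene the adjusted p was 0.999 by edgeR. Under the alternatives tried, Tnp2, Prm2, Acrv1 and Hspa2 each changed sign under at least 1.

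No member of the 28 gene lists was called between the groups, where 0.0115% of all tested genes were. Of 39 tested acrosome genes, 18 had a positive and 21 a negative log2 change, with a median of -0.0067. The chromatin list had 15 and 11 (median 0.18), mRNA storage 18 and 16 (0.02), tail genes 14 and 18 (-0.01), axoneme genes 18 and 25 (-0.08) and respiratory chain genes 17 and 24 (-0.08). The median over all tested genes was -0.0028. Within these lists, Elavl1, an RNA-binding protein, had 28.1, 24.1 and 17.7 CPM in stressed libraries and 42.7, 46.1 and 41.9 CPM in controls (-0.87, SE 0.32, adjusted p = 0.999 by edgeR). Slc2a3, a glucose transporter, had 11.4, 2.88 and 12.2 CPM in stressed libraries and 2.87, 2.14 and 2.19 CPM in controls (1.87, SE 0.69, the same adjusted p).

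Genes that answer to stress were examined as groups. Of 21 glucocorticoid genes found, 8 were tested, 3 with a positive and 5 with a negative log2 change, and the list summed to 860 to 1193 CPM in stressed libraries and 1013 to 1127 CPM in controls. Nr3c1, the glucocorticoid receptor, was low, with 0.670, 3.79 and 3.40 CPM in stressed libraries and 5.74, 5.74 and 1.73 CPM in controls (-0.55, SE 0.82). Heat shock and chaperone genes had 16 positive and 15 negative log2 changes (median 0.0035), oxidative stress genes 9 and 10 (-0.03) and apoptosis genes 5 and 7 (-0.15). The apoptosis list summed to 177 to 205 CPM in stressed libraries and 227 to 229.9 CPM in controls and did not overlap. Bcl2l14, a member of the BCL2 family, made most of that gap, with 105, 114 and 102 CPM in stressed libraries and 141, 144 and 123 CPM in controls (-0.29, SE 0.21, adjusted p = 0.999 by edgeR). Without it the sums overlapped, at 72.3, 90.7 and 97.2 CPM in stressed libraries and 89.02, 82.9 and 106 CPM in controls. Of the 28 lists, 2 had sums that did not overlap, close to the 8.23% of all tested genes whose groups did not overlap. Besides the apoptosis list this was the spermatogonia list, at 116 to 141 CPM in stressed libraries and 149 to 191 CPM in controls, most of it Ddx4. Of 20 tested genes of the endoplasmic reticulum stress list, 9 were positive and 11 negative (-0.07). The list summed to 1161 to 1297 CPM in stressed libraries and 1141 to 1259 CPM in controls. Its 2 members with the highest levels, Dnajb9 (0.13, SE 0.21) and Eif2s1 (0.29, SE 0.24), had positive log2 changes. The chaperones Hspa5 and Calr, its 2 members with the smallest p by edgeR, were lower in all stressed libraries without passing the test. Hspa5 had 14.7, 9.69 and 15.4 CPM in stressed libraries and 35.1, 22.2 and 20.3 CPM in controls (-0.92, SE 0.39), and Calr 33.5, 25.6 and 28.7 CPM in stressed libraries and 66.9, 43.9 and 49.8 CPM in controls (-0.84, SE 0.30). The levels of both genes also ran downward over the sets, with 639.8, 89.7 and 19.6 CPM of Hspa5 in sets 3 to 5.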

How the data were processed

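Per library, the authors deposited raw counts (genes by cells) and a second table in natural log units, each value of which matched ln(1 + the count scaled by the cell's total). An aligner, a genome build, an annotation and a cell filter were not given in the sources used here, and neither was the nature of a count (read or molecule), so intervals and floors (3 counts) cover counting error only. Per the labels' protocols, the Singleron GEXSCOPE kit and an Illumina NovaSeq were used. The tables list 21170 genes, and no cell was removed. Scrublet in scanpy 1.11.5 called 73 cells doublets (0.622%), which were kept.

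Cells are not replicates, so counts were summed per library over the members, at 44 to 210 cells a library. CPM values are not corrected for gene length. Sums were tested in edgeR 4.0.16 under R 4.3.3 by quasi-likelihood (TMM, filterByExpr, robust fit, Benjamini-Hochberg adjustment over all genes tested, calls at an adjusted p under 0.05). The test was also run on simulated counts, which gave every gene the same spread beyond sampling noise. Its outcome there is not given here and lends no support. A difference in the stress effect between sets was tested as an interaction with library as a block, and shares with exact permutation tests in scipy 1.17.1. Library pairs differed by more than sampling noise within groups (chi-square per degree of freedom 25.6 to 71.8) and across them (22.9 to 67.0), so none was treated as a duplicate deposit; this is no check of separate animals, which only the labels give.

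Named genes were the rule genes of sets 4, 5 and 6, all called genes, the 6 highest and 6 lowest log2 changes among symbols with 20 CPM in a group and no overlap, the 15 highest ratios to the neighbouring sets at 50 CPM, the 8 highest levels, up to 4 members of each of 28 lists, and Nr3c1, Tnp1, Tnp2, Prm2, Acrv1, Crem and Hspa2. Genes outside this rule were named after their values were seen. Members, lists and rule were chosen with earlier results of these data known. Alternatives were RLE scaling, DESeq2 1.42.0, no filter on low counts, a replicate block, each library left out, a score margin of 0.25, z-scores within libraries, and leaving out cells with other cells' RNA or with high Scrublet scores.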

Additional observations from a re-analysis of the deposited data

How the results depend on the processing

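AABR07001902.1 kept its direction under every alternative run, with log2 changes of 3.64 to 4.21 and adjusted p of 3.13e-11 (DESeq2) to 0.344, and its adjusted p was 0.0832 by edgeR with a score margin of 0.25 and 0.0563 with z-scores within libraries. The number of genes called by stress, 1, became 4 with DESeq2, 12 with no filter on low counts, 0 with the margin of 0.25, 0 with z-scores within libraries, and 0 to 1 with a library left out (1 without stressed replicate 3, where the call was ENSRNOG00000066568). The number of genes whose stress effect differed from set 4, 0, became 8 with no filter, and from set 6, 0, became 4 with no filter. The labels state no pairing of the animals by replicate number. Deviations of equally numbered libraries correlated at -0.014, -0.029 and 0.113, and 1 of 3 stressed libraries correlated best with its own number. These 3 values are too few to show or exclude a pairing. With the number as a replicate block the count of calls was 1, as without it. The difference in the share of set 5 cells, -0.140 points, turned to 0.172 points with the margin, 0.776 without cells with at least 0.5% of counts on macrophage and immediate early genes, 0.682 at a 0.1% limit with Aif1, Mrc1, Klf4 and Jund not counted (added after seeing the data, because Aif1 made most of that list), 0.107 without the highest Scrublet scores, and lay between -1.55 and 0.892 with a library left out. The share nearest to set 6 kept its sign, at 3.53 to 9.75 points with a library left out. Of the named genes, Tnp2 turned to 0.094 with z-scores within libraries, and Prm2 to 0.24 there, to 0.0089 with RLE scaling, 0.0087 with DESeq2 and 0.024 without other RNA at 0.5%. With a library left out, log2 changes spanned -0.40 to 0.16 for Tnp2, -0.30 to 0.38 for Prm2, -0.52 to 0.17 for Acrv1 and -0.25 to 0.047 for Hspa2. The cause of these changes was not tested. Stressed replicate 1, with 44 member cells, limits the depth of every comparison.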
